A study of Mus musculus with 10 samples.

Results

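Receptors for gut hormones and satiety signals were followed through 10 pools of mouse vagal sensory neurons sequenced by low-input RNA-seq. The receptors were the 10 genes Cckar, Cckbr, Glp1r, Gipr, Npy1r, Npy2r, Ghsr, Lepr, Mc4r and Gpr65, taken by symbol from the 24421 genes counted in every pool, because vagal afferents of the gut are known to carry receptors of this kind. The neurons came from the nodose part (caudal, of placodal origin) or the jugular part (rostral, of neural crest origin) of the fused vagal ganglion, and the pools formed 5 groups of 2. From Trpv1-tdTomato mice, in which Trpv1-Cre switches on a tdTomato reporter at the Rosa26 locus, came Trpv1+ nodose pools and Trpv1+ jugular pools of 30 red neurons each, and Trpv1- nodose pools of 15 unlabelled neurons each. From C57BL/6 wild-type mice came capsaicin nodose pools of 14 and 15 neurons and capsaicin jugular pools of 15 and 16 neurons, all of which had responded to capsaicin, an agonist of the channel TRPV1, in a calcium assay. The nodose neurons of that selection had also responded to α,β-methylene ATP, a P2X receptor agonist, and the jugular neurons to capsaicin only. No age was given. A Cre-driven label also marks neurons that expressed Trpv1 at an earlier stage, and the labelled neurons came from 2 mice and the unlabelled ones from the same mice, with the mouse behind each pool not stated, so the spread between 2 pools may be technical in part. Selection went together with strain, sequencing core and depth, and these cannot be told apart.

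Vagal afferents end in the gut wall, where enteroendocrine cells release peptides after a meal. Cholecystokinin acts there on the receptor encoded by Cckar, and this signal slows gastric emptying and ends the meal. Peptide YY acts on the receptor of Npy2r, glucagon-like peptide on that of Glp1r, and the stomach and fat tissue add ghrelin and leptin, which are read by the products of Ghsr and Lepr. Most of these receptors couple to G proteins that lead to calcium release or change cyclic AMP, while the leptin receptor is a cytokine receptor that works through JAK and STAT proteins. Gpr65 encodes a receptor that senses protons and is known from a class of vagal neurons that innervate the intestinal villi.

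The stretch before the gene start is shown for Npy2r and Gpr65, because these receptors were found in complementary nodose pools. Both come from the RefSeq promoter table (GRCm38.p6), which held 7 of the 10 genes. Each window is the 250 bases before the annotated start, written 5′ to 3′ on the strand of the gene, and capitals mark every ATTA or TAAT, which is the same core read on either strand and which many homeodomain proteins bind. The window of Npy2r is chr3:82548086-82548335 (minus strand) and that of Gpr65 is chr12:98268385-98268634 (plus strand).
Npy2r: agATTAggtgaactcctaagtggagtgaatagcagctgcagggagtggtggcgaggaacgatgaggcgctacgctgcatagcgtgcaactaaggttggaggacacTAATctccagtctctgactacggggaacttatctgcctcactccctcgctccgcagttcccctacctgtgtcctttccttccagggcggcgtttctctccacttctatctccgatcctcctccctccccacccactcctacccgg
Gpr65: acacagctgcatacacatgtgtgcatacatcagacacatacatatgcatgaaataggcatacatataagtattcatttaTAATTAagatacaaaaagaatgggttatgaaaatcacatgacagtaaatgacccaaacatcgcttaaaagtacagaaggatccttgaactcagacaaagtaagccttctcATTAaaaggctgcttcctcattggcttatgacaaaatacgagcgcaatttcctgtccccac
The core occurred 2 times in the Npy2r window and 3 times, 2 of them overlapping, in the Gpr65 window. Of all 32851 windows of this length in the table, 54.9% held it at least once, with a median of 1 match. The Npy2r window had a GC content of 56.8% and the Gpr65 window 36.8%, with a median of 52.4% over all windows.

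Total counts were 148452506 to 167704327 per pool in the Trpv1 selection and 17666710 to 30810863 in the capsaicin selection. Levels are given in CPM, that is read counts scaled to a common library size by DESeq2's size factors over the 10 pools. On this scale the Trpv1-selection pools had a floor, set at 3 counts, of 0.0116 to 0.0154 CPM, while that of the capsaicin pools was 0.118 to 0.176 CPM, so a gene at 0 is bounded less tightly there. Marker levels went with the labels. The nodose markers P2rx2 and Hoxb5 were at 61.4 to 548 CPM and 233 to 417 CPM in the 6 nodose pools. In the 4 jugular pools they were at 0.0525 to 0.235 CPM and 0 to 0.196 CPM. The 6 jugular markers, which include Prdm12 and Tac1, summed to 420.7 to 1417 CPM in jugular pools against 1.346 to 37.6 CPM in nodose pools. The study reported Hoxb5, Prdm12, Cited1 and Tshz1 from these same pools, so they are no independent check of the labels. Nor is P2rx2 in the capsaicin selection, where nodose neurons were picked by a P2X response. Trpv1 itself was at 202 and 118 CPM in the Trpv1+ nodose pools and at 0.0348 and 0.0334 CPM in the Trpv1- nodose pools. Its level in the Trpv1+ jugular pools, 17.8 and 25.8 CPM, was lower than in the capsaicin jugular pools, 223 and 70.6 CPM. The 12 markers of satellite glia and Schwann cells gave a sum of 2974 to 4058 CPM in Trpv1-selection pools but of 1582 to 2202 CPM in capsaicin pools, with Apoe at 63.3 to 3080 CPM and Gfap at 0 counts in every pool. The 7 immune markers summed to 0.1668 to 76.66 CPM, with Ptprc, Aif1, Csf1r and Cd3e at 0 in every pool, Cx3cr1 at up to 11.7 CPM, Cd68 at 75.7 CPM in the first capsaicin nodose pool and 17.9 CPM in the first capsaicin jugular pool, and Cd79a at 15.5 CPM in the latter. In pooled cells, fewer cells that express a gene and less RNA of it per cell cannot be told apart.

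The cholecystokinin receptors were represented mainly by Cckar. Cckar (chr5:53697776-53707705, minus strand, GRCm38) reached 36.35 and 123.7 CPM in the Trpv1+ nodose pools, from 7062 and 25225 counts. In the capsaicin nodose pools it reached 1787 and 702.7 CPM, from 42862 and 12011 counts. Every nodose pool selected for Trpv1 or capsaicin was thus far above every other pool. The capsaicin jugular pools held 0.7455 and 0.4169 CPM, from 19 and 10 counts, and the Trpv1+ jugular pools 4 and 2 counts. The Trpv1- nodose pools held 62 and 4 counts, that is 0.2396 and 0.01669 CPM. None of these 6 pools reached 1 CPM, although all but the second Trpv1+ jugular pool were above the floor of 3 counts. Cckbr, which encodes the receptor shared by cholecystokinin and gastrin, had 49 counts in the second Trpv1+ nodose pool, 0.2403 CPM, and 0 counts in the other 9 pools.

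The ratio of mean Cckar CPM between nodose and jugular pools was 6320 in the Trpv1 selection (95% counting interval 2910 to 17200) and 2140 in the capsaicin selection (1490 to 3200). Between Trpv1+ and Trpv1- nodose pools it was 625 (491 to 808). These intervals cover counting error only and leave out the spread between pools. The nodose pools of the selections did not overlap, with a mean of 80.03 ± 61.8 CPM (SD, n = 2) under the Trpv1 selection and 1245 ± 767 CPM (SD, n = 2) under the capsaicin selection, and this difference was not tested. Per kilobase of exon these means were 21.7 and 338 CPM. With every pool thinned to 17666710 counts, the smallest total, the capsaicin nodose pools still held 33983 and 6888 Cckar counts and the Trpv1+ nodose pools 837 and 2838.

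Among the receptors of the neuropeptide Y family, Npy2r followed the same groups as Cckar and Npy1r did not. Npy2r (chr3:82538383-82548084, minus strand) was at 15.35 and 2.898 CPM in the Trpv1+ nodose pools, from 2982 and 591 counts, and at 67.74 and 145.6 CPM in the capsaicin nodose pools, from 1625 and 2489 counts. The other 6 pools together held 3 counts, of which 2 were in the Trpv1- nodose pool numbered 1 and 1 in the capsaicin jugular pool numbered 2. All 4 of the Trpv1+ and capsaicin nodose pools therefore lay above the rest. The mean was at least 729-fold higher in Trpv1+ nodose than in Trpv1+ jugular pools, where it was set against 3 counts per pool. The ratio was 5120 in the capsaicin selection (95% counting interval 918 to 202000, from 1 jugular count) and 2360 between Trpv1+ and Trpv1- nodose pools (654 to 19500). The first Trpv1+ nodose pool had more Npy2r than the other one and less Cckar, and the first capsaicin nodose pool had less Npy2r than the other one and more Cckar, so the levels of the receptors did not rise together within a group.

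Npy1r (chr8:66697192-66706792, plus strand), whose product binds neuropeptide Y and intact peptide YY, was low and nearly even over the groups. It was at 4.998 and 4.316 CPM in Trpv1+ nodose, 5.65 and 3.563 CPM in Trpv1+ jugular, 6.495 and 4.877 CPM in Trpv1- nodose and 4.502 and 3.276 CPM in capsaicin nodose pools. Divided by the total count instead, the mean in Trpv1- nodose pools was 9.252 rather than 5.686 CPM. The capsaicin jugular pools lay on either side of all others, at 43.51 and 1.751 CPM. That first capsaicin jugular pool also had the highest sum of the 7 vessel and fibroblast markers, 249.5 CPM against 0 to 48.74 CPM in the other 9 pools, mostly from Dcn at 239 CPM, while Pecam1, Cldn5, Kdr, Col1a1 and Pdgfra were at 0 there. The part of such cells in the Npy1r level was not tested.

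**Figure D1:**
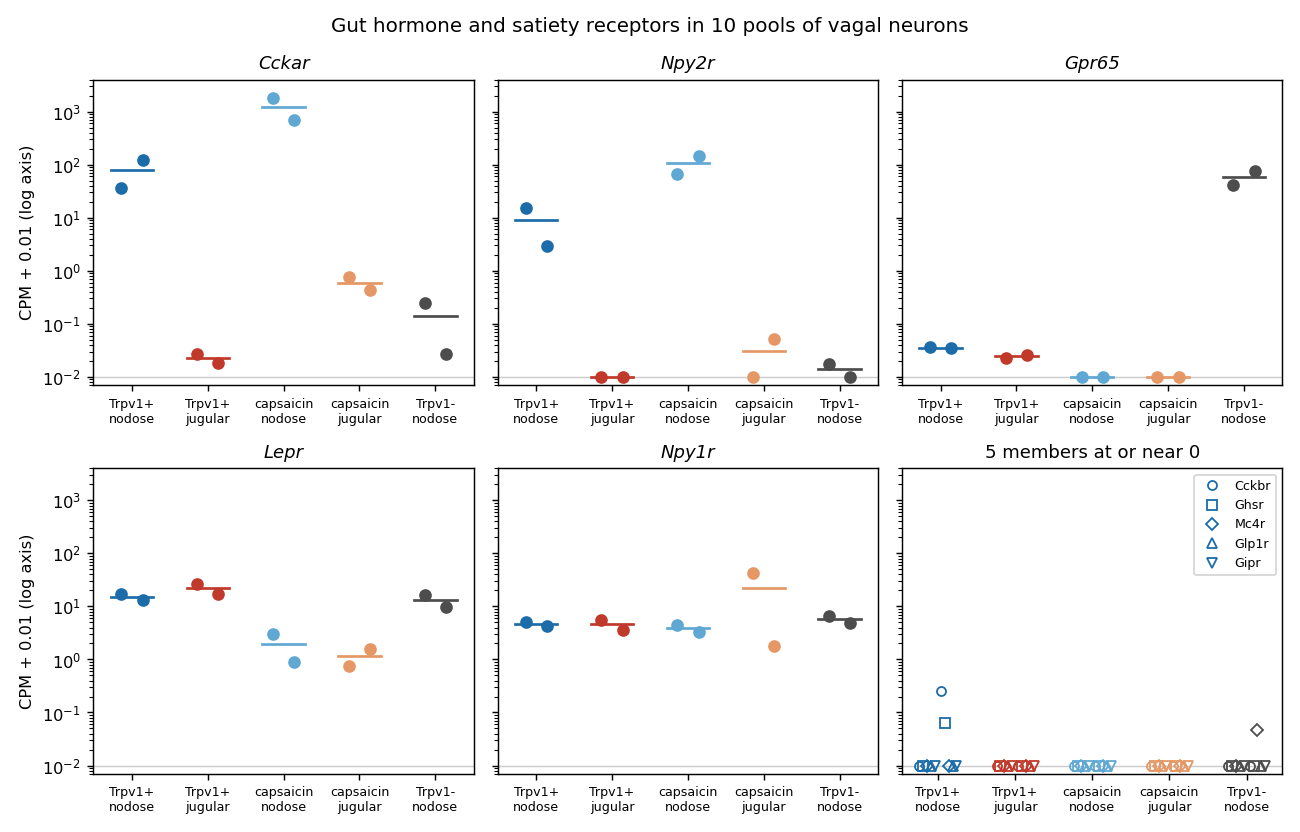
Levels of the 10 receptor genes in the 10 pools, as CPM plus 0.01 on a log axis. Points are pools, short lines the means of 2 pools in panels of single genes, and open symbols show the 5 genes at or near 0. Cckar and Npy2r stand high in the Trpv1+ and capsaicin nodose pools, Gpr65 in the Trpv1- nodose pools at 40.77 and 74.71 CPM, Lepr is lower in the 4 capsaicin pools than in the other 6, and Npy1r is even apart from 1 capsaicin jugular pool at 43.51 CPM.

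Gpr65 had the opposite pattern to Cckar and Npy2r within the nodose ganglion. This gene (chr12:98268635-98276644, plus strand) was at 40.77 and 74.71 CPM in the Trpv1- nodose pools, from 10552 and 17905 counts. The Trpv1+ nodose pools held 5 counts each, the Trpv1+ jugular pools 3 and 4, and the 4 capsaicin pools 0. The mean was 57.74 ± 24 CPM (SD, n = 2) in Trpv1- nodose pools, or 27.9 CPM per kilobase, and its ratio over Trpv1+ nodose pools was 2300 (95% counting interval 1250 to 4790). The exons of the antisense gene Gm47566 cover 24.7% of the exon bases of Gpr65 in GENCODE vM21. The files do not list Gm47566, and as no strand setting was stated, reads from it could not be told from Gpr65 in the 511 shared bases. The level in Trpv1- nodose pools depended on the scaling, with a mean of 93.67 CPM when counts were divided by the total count and 89.83 CPM after thinning. Of the 3 other proton-sensing receptors at most 1 was tested in any comparison and 0 were called, and they summed to at most 1.463 CPM in a pool.

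Lepr (chr4:101717404-101815352, plus strand) was read in all 10 pools. It was at 16.85 and 13.18 CPM in Trpv1+ nodose, 26.84 and 17.31 CPM in Trpv1+ jugular and 16.69 and 9.663 CPM in Trpv1- nodose pools. The capsaicin nodose pools were at 3.001 and 0.8776 CPM, and the capsaicin jugular pools at 0.7455 and 1.584 CPM. The 6 pools of the Trpv1 selection thus all lay above the 4 capsaicin pools, whichever ganglion they came from, also when counts were divided by the total count, where the mean in Trpv1- nodose pools was 21.46 instead of 13.18 CPM. Thinned to the same total, the Trpv1-selection pools held 286 to 720 Lepr counts and the capsaicin pools 5 to 52. The summed glial markers were also higher in the Trpv1 selection, as given above, and their part in the Lepr levels was not tested. The share of Rn45s, a ribosomal RNA gene, was 2.652% to 10.342% in pools of the Trpv1 selection but 0.014% to 0.137% in capsaicin pools, and its part was not tested either.

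The other receptors gave few or no reads. Glp1r and Gipr, which encode the receptors of the incretin hormones, had 0 counts in all 10 pools, which allows a level of up to 0.0154 CPM per pool in the Trpv1 selection and up to 0.176 CPM in the capsaicin selection. Ghsr, the ghrelin receptor gene, had 11 counts in the second Trpv1+ nodose pool, 0.05394 CPM, and 0 elsewhere. Mc4r, whose product is activated by melanocortins and blocked by agouti-related peptide, had 9 counts in the second Trpv1- nodose pool, 0.03755 CPM, and 0 elsewhere. With Cckbr, these 5 genes were too low for any test. These values are limits for the pools sequenced, of 30 or fewer neurons each, and not for the ganglia.

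Per kilobase of exon, the levels ranked Cckar (338 CPM per kilobase), Npy2r (31.5), Npy1r (1.13) and Lepr (0.275) in capsaicin nodose pools. In Trpv1+ nodose pools the per-kilobase order was Cckar (21.7), Npy2r (2.7), Lepr (2.13) and Npy1r (1.35), and the lowest Npy2r pool, at 0.857, was below both Lepr pools, at 2.39 and 1.87. In Trpv1- nodose pools Gpr65 (27.9) stood above Lepr (1.87) and Npy1r (1.65), which overlapped. Lepr at 3.13 was the highest in Trpv1+ jugular pools, followed by Npy1r at 1.33, and these pools did not overlap. Npy1r at 6.55 led the capsaicin jugular pools, where its level rested on 1 pool.

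Differences between groups were tested with edgeR's quasi-likelihood test over all genes, and p-values were adjusted by the Benjamini-Hochberg method. The thresholds for a call were 0.1 for the adjusted p, 2 for the fold and 10 CPM in both pools of at least 1 group. The test of nodose against jugular neurons asks which genes differ with ganglion among neurons selected by the Trpv1 label or capsaicin response. It was made within each selection and over both. In the capsaicin selection, ganglion went together with the response to α,β-methylene ATP, and these cannot be told apart. After the filter on low counts 4 of the 10 receptors could be tested, Cckar, Npy2r, Lepr and Npy1r, and Gpr65 only where Trpv1- pools took part. Cckar and Npy2r passed this filter through nodose pools alone, and Gpr65 through Trpv1- nodose pools alone, so the number of called members among those tested is not evidence about the receptors as a set.

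With both selections in 1 fit of 8 pools and the selection as a covariate, Cckar and Npy2r were called higher in nodose neurons. Cckar differed by 11.61 on the log2 scale (SE 0.944, adjusted p = 0.000222, edgeR), and was higher in 4 of 4 nodose pools than in any jugular pool. Npy2r differed by 12.46 (SE 2.53, adjusted p = 0.0844, edgeR), also without overlap of the pools. Log2 fold changes of this size rest on jugular counts at or near 0 and depend on the prior count, so the ratios and bounds above describe the size better. Of the 10670 genes tested in this fit 0.825% were called, and 0.384% were called higher in nodose, against 2 of the 4 receptors. Lepr differed by -0.02 (SE 1.76, adjusted p = 1, edgeR), or by 0.12 with DESeq2's size factors in place of edgeR's TMM scaling. Npy1r differed by -1.37 (SE 2.13, adjusted p = 0.988, edgeR). The pools overlapped for each of these genes, and neither gene passed the test. Cckar kept its call without any 1 of the 8 pools, at adjusted p of 0.000561 to 0.00782 (edgeR). The call of Npy2r was lost without each of the 8 pools in turn, at adjusted p of 0.142 (without the second Trpv1+ nodose pool) to 0.289 (without the second Trpv1+ jugular pool), although its log2 fold change stayed between 11.68 and 13.91.

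**Figure D2:**
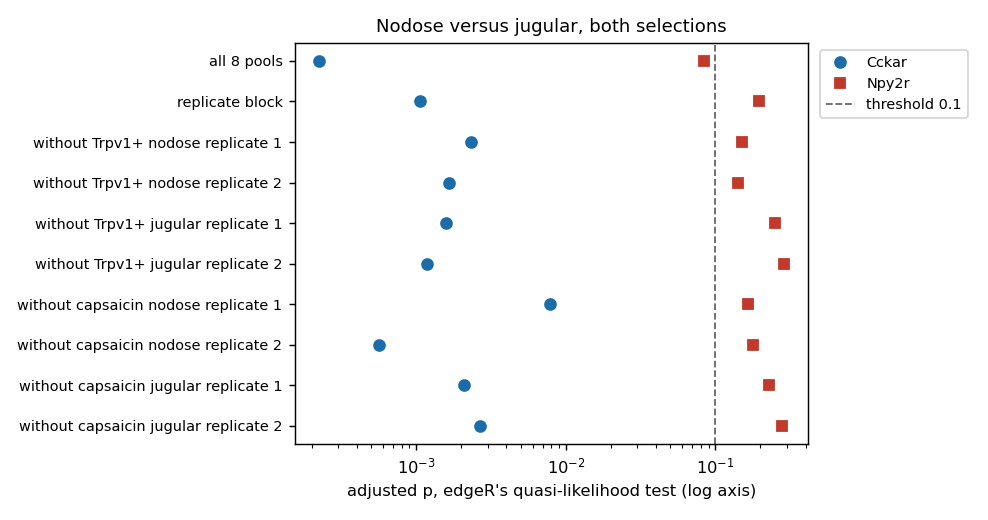
Adjusted p of Cckar and Npy2r (edgeR's quasi-likelihood test, log axis) for nodose against jugular neurons over both selections, with all 8 pools, with the replicate number as a block, and without each pool in turn. Cckar stays left of the threshold of 0.1 in every row, at 0.000222 to 0.00782, and Npy2r is left of it only with all 8 pools, at 0.0844.

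Within each selection, 4 pools gave less certainty. In the Trpv1 selection Cckar differed by 12.57 between nodose and jugular pools (SE 1.81, adjusted p = 0.158, edgeR) and Npy2r by 13.96 (SE 3.81, adjusted p = 0.321, edgeR). None of the 4 tested receptors was called, where 0.318% of 10990 genes were, although 2 of them, Cckar and Npy2r, had an unadjusted p under 0.05. DESeq2 called 1, Cckar (adjusted p = 1.1e-10), and 3.84% of all genes, and Npy2r missed its call there only because 1 nodose pool was under 10 CPM. In the capsaicin selection Cckar differed by 10.79 (SE 1.13, adjusted p = 0.155, edgeR) and Npy2r by 11.59 (SE 2.91, adjusted p = 0.352, edgeR). Cckar was called without the first capsaicin nodose pool (adjusted p = 0.0905, edgeR) and without the first or the second capsaicin jugular pool (adjusted p = 0.00322 and 0.00521, edgeR). With all 4 pools no gene was called there (0% of 8181 genes by edgeR, with 1150 genes and 2 of the receptors at an unadjusted p under 0.05), whereas DESeq2 called 6.58% of all genes, with Cckar (adjusted p = 7.56e-05) and Npy2r (adjusted p = 0.000563) among them. The means of Lepr differed by 1.47-fold in the Trpv1 selection, higher in jugular pools, with the nearest pools at 17.31 and 16.85 CPM, and the difference of -0.56 on the log2 scale did not pass the test (SE 1.49, adjusted p = 0.969, edgeR). In the capsaicin selection Lepr differed by 0.46 (SE 1.76, adjusted p = 1, edgeR) and Npy1r by -2.81 (SE 2.75, adjusted p = 0.965, edgeR). Without the first capsaicin jugular pool the Npy1r difference was 0.80 in the other direction.

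Whether the nodose over jugular difference itself changed with the selection was tested by the interaction of ganglion and selection. By edgeR 0% of 11959 genes were called, with 1233 genes and 0 of the 4 tested receptors at an unadjusted p under 0.05, and DESeq2 called 8% of all genes and 0 receptors. The log2 fold change in the capsaicin selection minus that in the Trpv1 selection was -1.75 for Cckar (SE 1.16, adjusted p = 0.646, edgeR), -1.38 for Npy2r (SE 1.39, adjusted p = 0.864, edgeR), 0.98 for Lepr (SE 3.34, adjusted p = 1, edgeR) and -2.87 for Npy1r (SE 3.77, adjusted p = 0.949, edgeR). These errors leave wide room for differences in either direction.

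The comparison of Trpv1+ with Trpv1- nodose neurons asks what sets nodose neurons with the Trpv1-Cre label apart from unlabelled ones. It shares the Trpv1+ nodose pools with the comparison above, and its neurons were not tested with capsaicin. The log2 fold change of Trpv1+ over Trpv1- pools was 9.28 for Cckar (SE 2.1, adjusted p = 0.366, edgeR) and 10.99 for Npy2r (SE 3.51, adjusted p = 0.371, edgeR), while it was -11.10 for Gpr65 (SE 1.74, adjusted p = 0.366, edgeR). Without the first Trpv1- nodose pool the value was 12.25 for Cckar and 13.93 for Npy2r, and without the second Trpv1+ nodose pool it was 8.14 for Cckar. The pools of each did not overlap, yet 0 of the 5 tested receptors were called, where 0.0527% of 11386 genes were. All 3 had an unadjusted p under 0.05, and DESeq2 called 2 of them, Cckar (adjusted p = 2.07e-05) and Gpr65 (adjusted p = 1.86e-10), with 2.76% of all genes. Lepr differed by 0.21 (SE 1.56, adjusted p = 0.995, edgeR) and Npy1r by -0.27 (SE 1.87, adjusted p = 0.995, edgeR), with overlapping pools. Trpv1, the gene behind the label, was among the called genes, at a log2 fold change of 12.20 (SE 0.928, adjusted p = 0.07, edgeR), and this call was lost without each of the 4 pools in turn, at adjusted p of 0.468 to 0.792 (edgeR), and with a replicate block (adjusted p = 0.308). DESeq2 also called it (adjusted p = 2.81e-13).

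**Figure D3:**
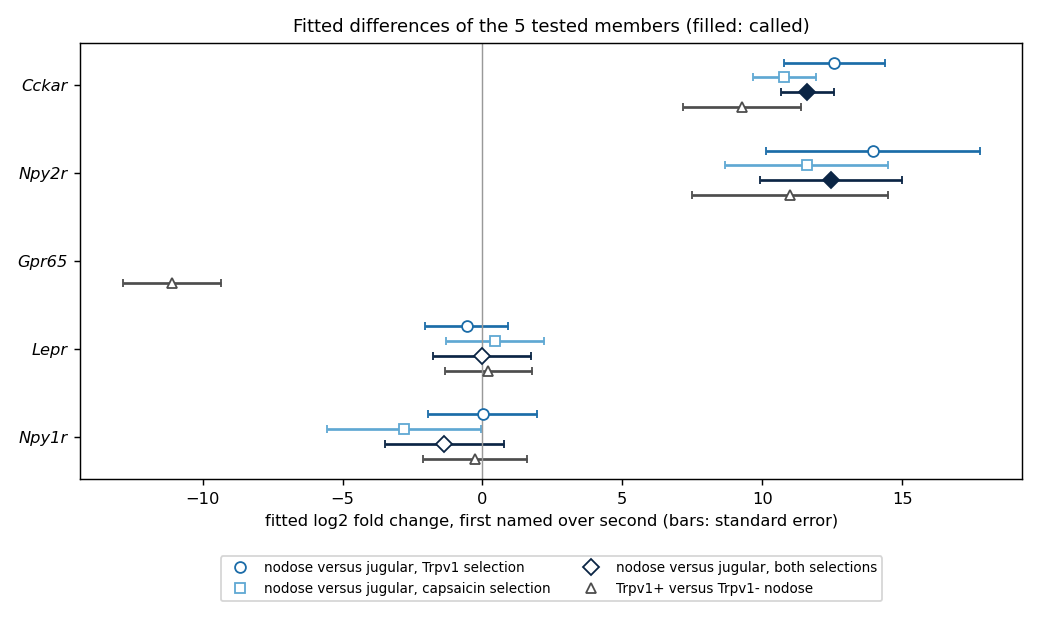
Fitted log2 fold changes of the 5 tested receptors in 4 comparisons, the group named first over the group named second, with standard errors as bars and called genes filled. Cckar and Npy2r lie above 9 in every comparison and are filled only in the fit of both selections, Gpr65 lies at -11.10 between Trpv1+ and Trpv1- nodose pools, and the bars of Lepr cross 0 throughout.

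In an F test for any difference among the 5 groups over all 10 pools, 3 of the 5 tested receptors were called, against 4.75% of 12957 genes. They were Cckar (adjusted p = 0.000894, edgeR), Npy2r (adjusted p = 0.0504, edgeR) and Gpr65 (adjusted p = 0.053, edgeR). Lepr (adjusted p = 0.477, edgeR) and Npy1r (adjusted p = 0.931, edgeR) did not pass the test. DESeq2 called 4 of the 5, Lepr included (adjusted p = 0.000632), and 19.4% of all genes. This test does not separate ganglion from selection.

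Genes with the most similar pattern over the 10 pools were sought for the 4 receptors with at least 10 CPM in both pools of a group, among 7500 other genes at that level, by the root mean square difference of log2(CPM + 1) after centring each gene on its mean. For Cckar, which itself varied by 4.08 around its mean, they were Vip (1.19), the gene of vasoactive intestinal peptide, Col6a5 (1.21), a collagen gene, and Itm2a (1.51). Mean CPM of Vip was 95.3 in Trpv1+ nodose and 304 in capsaicin nodose pools and at most 0.163 in the other groups. Npy2r, which varied by 2.68, was nearest to Tcaf2 (0.491), Ofd1 (0.876) and Trpc4 (0.965), the gene of a cation channel, at 19.6 CPM in Trpv1+ nodose and 129 CPM in capsaicin nodose pools. Gpr65, which varied by 2.33, was nearest to Dbh (0.393), the gene of the enzyme that makes noradrenaline, Kcnk1 (0.534), a potassium channel gene, and Thsd1 (0.557), with Dbh at 30.7 CPM in Trpv1- nodose pools and at most 0.0123 CPM elsewhere. Lepr, which varied by 1.45, was nearest to 4833417C18Rik (0.206), Psmb11 (0.24) and Ripply3 (0.285), which had means of 6.38 to 22.6 CPM in the 3 groups from Trpv1-tdTomato mice against 0.427 to 1.64 CPM in the capsaicin groups. These values are descriptions, since the 10 points share library and selection.

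**Figure D4:**
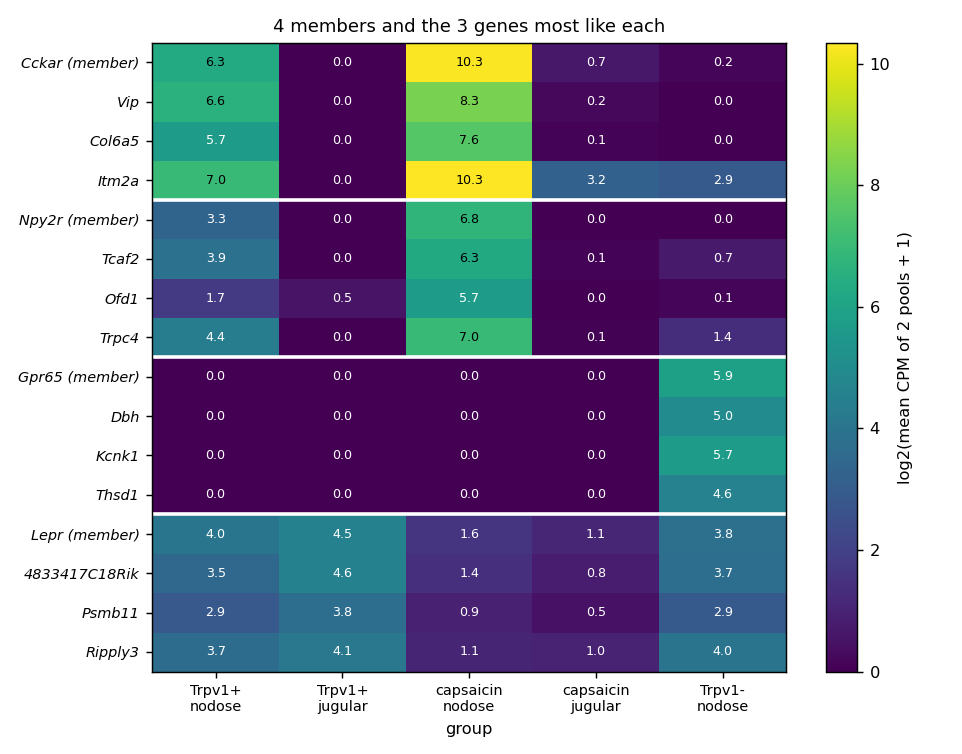
Mean level per group, as log2(CPM + 1) of the mean of 2 pools, for 4 receptors and the 3 genes nearest to each by root mean square difference over the 10 pools. Vip, Col6a5 and Itm2a share with Cckar a high level in the Trpv1+ and capsaicin nodose groups, Dbh, Kcnk1 and Thsd1 are high with Gpr65 in the Trpv1- nodose group, and the genes nearest to Lepr are lower in both capsaicin groups.

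The wider set of signalling genes was given as fixed lists. Of 40 other receptors of gut and feeding peptides, 9, 3, 8 and 7 were tested between nodose and jugular pools of the Trpv1 selection, of the capsaicin selection, between Trpv1+ and Trpv1- nodose pools and over both selections, and 0 were called in each by edgeR or DESeq2. Of these, 3, 1, 0 and 2 had an unadjusted p under 0.05 by edgeR. Their median log2 fold changes were 0.40, -0.59, -0.04 and -2.66, beside 0.03, -0.02, 0.01 and -0.16 over all tested genes. Adipor1, an adiponectin receptor gene, was at 8.63 to 162 CPM over the 10 pools. Of 15 receptors for nutrients and metabolites at most 1 was tested and 0 were called, and 12 were at 0 counts in each group. Gpr119, a lipid receptor gene named here after its values were seen, was at 63.7 CPM in 1 capsaicin nodose pool and 0 in the other. Of the 11 genes for ligands of the receptors, 1 or 2 were tested in each of these 4 comparisons and 0 were called by edgeR, with 1, 1, 0 and 1 at an unadjusted p under 0.05 and median log2 fold changes of 6.42, -8.35, 1.92 and 4.23. Agrp, also named after its values were seen, encodes a blocker of the receptor of Mc4r and was at 10.4 and 62.7 CPM in Trpv1+ nodose pools and 0.00861 and 0.00808 CPM in Trpv1+ jugular pools, a log2 fold change of 12.00 in the Trpv1 selection that did not pass edgeR's test (SE 2.63, adjusted p = 0.321) and that DESeq2 called. It was at 4.0 and 0 CPM in capsaicin nodose, 0 in both capsaicin jugular and 18.1 and 3.91 CPM in Trpv1- nodose pools.

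Among the 28 partners and signal relays of the receptors, 1 of 22 tested was called between nodose and jugular pools in the Trpv1 selection, 0 of 17 in the capsaicin selection, 0 of 24 between Trpv1+ and Trpv1- nodose pools and 1 of 22 over both selections, with 1, 0, 3 and 1 at an unadjusted p under 0.05. Their median log2 fold changes were 0.41, 0.03, 0.30 and 0.24. DESeq2 called 0, 0, 1 and 1 of them. The gene edgeR called was Gnas in each, which encodes the stimulatory G protein subunit that receptors of the Glp1r, Gipr, Mc4r and Gpr65 kind use. Gnas was at 5460 and 5070 CPM in Trpv1+ nodose and 1770 and 1630 CPM in Trpv1+ jugular pools, a log2 fold change of 1.62 (SE 0.098, adjusted p = 0.0196, edgeR). The capsaicin nodose pools were at 1490 and 2230 CPM, the capsaicin jugular pools at 644 and 664 CPM, and the Trpv1- nodose pools at 2450 and 2270 CPM. Nodose pools were thus higher than jugular pools within each selection, by 1.42 on the log2 scale over both (SE 0.182, adjusted p = 0.00575, edgeR). Over both selections Gnas kept its call without any 1 pool, at adjusted p of 0.00249 to 0.0577 (edgeR), and DESeq2 called it too (adjusted p = 0.00347). In the Trpv1 selection alone its call was lost without each of the 4 pools in turn, at adjusted p of 0.325 to 0.702 (edgeR), and DESeq2 did not call it (adjusted p = 0.625). Gnaq, the subunit used by the product of Cckar, was called with Gnas in the F test over the 5 groups (adjusted p = 0.0685, edgeR), at 35.5 to 110 CPM in the 6 pools from Trpv1-tdTomato mice against 403 to 703 CPM in the 4 capsaicin pools.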

How the data were processed

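RNA of each pool was copied with the oligo-dT-primed SMARTer Ultra Low Input kit, without RNA extraction, and sequenced in pairs. Per the study's methods and the submitters' processing notes, the authors aligned reads to mm10 with TopHat2 2.0.9 and Bowtie2 2.1.0.0 and counted them with HTSeq. The deposited values are raw counts per gene symbol, not normalized. The annotation, strand setting and HTSeq version are not given in the sources used here. All 10 pools were used, with groups and replicate numbers from the labels.

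Levels were counts divided by DESeq2's size factors over the 10 pools, scaled to CPM, and divided by the exon union of GENCODE vM21 where given per kilobase. Intervals of ratios (95%) are exact Poisson intervals for the summed count of the lower group, with the higher mean taken as fixed. These intervals and the floors of 3 counts cover counting error only. PCR reads without molecular identifiers are not independent molecules.

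Tests used edgeR 4.0.16 in R 4.3.3 (TMM, filterByExpr, quasi-likelihood F test, Benjamini-Hochberg over all tested genes). The standard error is the log2 fold change over the square root of F. With 2 pools against 2, an exact permutation test could not fall below 0.33, so none was used. DESeq2 1.42.0, DESeq2's size factors, no low-count filter, 1 fit to all pools, a replicate block and leaving out each pool were alternatives. Scripts were tested on simulated counts. All 10 receptors are named, with the 3 genes most like each receptor at 10 CPM or more in both pools of a group, and called genes of fixed lists. The receptors and lists were chosen with earlier results of these data known. Replicate pools were no copies of each other.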

Additional observations from a re-analysis of the deposited data

How the results depend on the processing

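Of 108 log2 fold changes of the receptors under other tests, scalings, filters, fits or a block, 91 kept direction and side of the threshold, 1 fell short of it, 13 newly passed the adjusted p (2 of them, Npy2r by DESeq2, without a call for want of 10 CPM) and 3 changed sign, and of 84 with a pool left out 62 kept both. Of 46 levels under another scaling or after thinning, 19 moved by more than the SD of the pools. The cause of these changes was not tested. DESeq2 called 1, 2 and 2 receptors between nodose and jugular pools of the Trpv1 selection, of the capsaicin selection and between Trpv1+ and Trpv1- nodose pools, where edgeR called 0. Over all genes it called 510, 707 and 390 there, 1120 over both selections, 1053 for the interaction and 2658 among the 5 groups, against 35, 0, 6, 88, 0 and 616 by edgeR. Without a filter on low counts edgeR called 1 receptor in each selection, and 59, 122, 10, 222, 95 and 1531 genes in that order of comparisons. A fit to all 10 pools called 1 receptor in each selection and 110 genes in the capsaicin selection.

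No pairing of pools by replicate number was detected, with deviations of same-numbered pools correlated at -0.0321 to 0.0189 over all pairs of groups. A weak pairing, such as a shared mouse, could go unseen beside the large spread between replicate pools. With a replicate block 1 receptor was called in the capsaicin selection and 1 over both selections, where Npy2r was lost (adjusted p = 0.196, edgeR), and 13, 20, 1 and 52 genes were called in the Trpv1 selection, the capsaicin selection, Trpv1+ against Trpv1- nodose and both selections. Leaving out a pool in turn, receptor calls were 0 to 1 in the capsaicin selection and 1 over both selections, and gene calls were 0 in the Trpv1 selection and between Trpv1+ and Trpv1- nodose pools, 0 to 29 in the capsaicin selection and 36 to 82 over both. An arm left with 1 pool was taken to vary like the others.

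Changes of sign were limited to Npy1r and Lepr among the receptors, which passed no test by edgeR. Npy1r in the Trpv1 selection was -0.034 without the filter. Lepr over both selections was 0.10 by DESeq2 and 0.12 with its size factors. With a pool left out, Npy1r ranged from -0.30 to 0.36 in the Trpv1 selection, -3.74 to 0.80 in the capsaicin selection and -1.93 to 0.36 over both, and Lepr from -0.93 to 1.18 in the capsaicin selection, -0.17 to 0.70 between Trpv1+ and Trpv1- nodose pools and -0.66 to 0.27 over both. DESeq2's size factors raised the median log2 fold change of all genes by 0.108 in the capsaicin selection, 0.138 over both and 0.35 in the interaction. Depth limits Glp1r, Gipr, Cckbr, Ghsr and Mc4r to bounds.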
